A study of Oncorhynchus mykiss with 18 samples.

Results

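The loci described here are predicted precursor microRNA (miRNA) locations of the rainbow trout genome that were counted in blood plasma alone. They were chosen by their measured counts: a row of the count table had to be named by a genomic location rather than by a known miRNA, its counts had to sum to 0 over the 12 mucus and water libraries and to more than 0 over the 6 plasma libraries, and its counts over all 18 libraries had to differ from those of every other row. This selected 437 loci of 4672 rows named by location, in a table of 4884 rows that also holds 212 known miRNAs. Of the other rows named by location, 3477 were also counted in plasma alone but repeated the counts of another row, 161 were counted in plasma and in mucus or water, and 597 were counted only in mucus or water.

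Small RNA was sequenced from trout plasma, from mucus of the skin and from the water of the tank, with 3 stressed and 3 control libraries of each sample type. Stressed samples were taken 1 h after the fish had spent 3 min out of the water in air, and control samples were taken before this exposure. Stressed and control plasma came from different fish of a tank, so each plasma library is 1 fish and the libraries were not treated as pairs. Per the study, the experiment was run in 3 replicates, and plasma of 1 control and 1 stressed fish was sequenced from each. The fish carried no other treatment or genetic change that the labels name.

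A miRNA precursor is a short hairpin transcript that is cut to mature miRNAs, which repress messenger RNAs with matching sites. Plasma carries miRNAs released from blood cells, vessel wall and organs, bound to proteins or enclosed in vesicles, and red blood cells of fish are nucleated. A predicted precursor is a genome location whose stacked small RNA reads and folding resemble such a hairpin, and other short RNA fragments can resemble one as well. The salmonid lineage went through a whole genome duplication, so that near-identical copies of a small RNA gene can lie on different chromosomes.

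Plasma libraries held between 4338151 and 13222298 counts in all rows, of which 3815302 to 12858162 fell on known miRNAs. Of the miRNAs usually taken as marks of a cell source, miR-144 of red blood cells was between 410 and 2880 CPM (counts scaled to a total of 1000000 for all rows of a library) in plasma and between 1.1 and 199 CPM in mucus and water. Endothelial and thrombocyte miR-126 was between 5712 and 16075 CPM in plasma and between 2.27 and 942 CPM in mucus and water. The 7 rows of the muscle miRNAs miR-1, miR-133 and miR-206 summed to between 24.7 and 812 CPM in plasma and were listed at 0 in mucus and water. Leukocyte rows (2934 to 7004 CPM against 1.31 to 725) and miR-16 rows (2669 to 8898 against 0 to 905) were also higher in plasma. Liver miR-122 overlapped, with 214 to 1702 CPM in plasma and 0 to 317 in mucus and water. The 15 epithelium and skin rows summed to between 949 and 16879 CPM in plasma and between 9481 and 298649 in mucus and water, so these ranges overlapped too. The part of any of these sources in the loci below was not tested.

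The loci were spread over the genome. They lay on 29 assembled chromosome sequences (408 loci, between 4 and 24 on each) and on 22 unplaced scaffolds (29 loci, 6.64%), whereas 12.1% of the plasma-only loci with repeated counts lay on scaffolds. There were 223 loci on the plus strand and 214 on the minus strand. Their median length, given as end minus start in the coordinates of the table (build Omyk_1.0), was 60 bases with a range of 34 to 99, and the loci with repeated counts had the same median. Length hardly varied with the number of libraries in which a locus was counted, with medians between 59 and 61 bases at every number.

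Most of these loci were counted in a minority of the fish. Of the 437 loci, 177 (40.5%) were counted in 1 plasma library, 171 (39.1%) in 2, 54 in 3, 18 in 4, 9 in 5 and 8 (1.83%) in all 6. Of the 205 known miRNAs counted in plasma, 135 (65.9%) were counted in all 6 libraries. Their median nonzero count in plasma was 974, against 42 for these loci, and they did not have to be absent from mucus and water. The part of level and of the rule in this contrast was not tested. Of the loci counted in plasma and in mucus or water, 39.1% were counted in 1 plasma library and 9.32% in all 6. The prediction was run for each library, so a count of 0 for a located row can mean that the location was not listed in that library. No limit is therefore given for a count of 0. The lowest count listed in a library was between 2 and 7 for located rows and between 1 and 9 for known miRNAs. How many of the zeros arose from the listing was not tested.

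**Figure D1:**
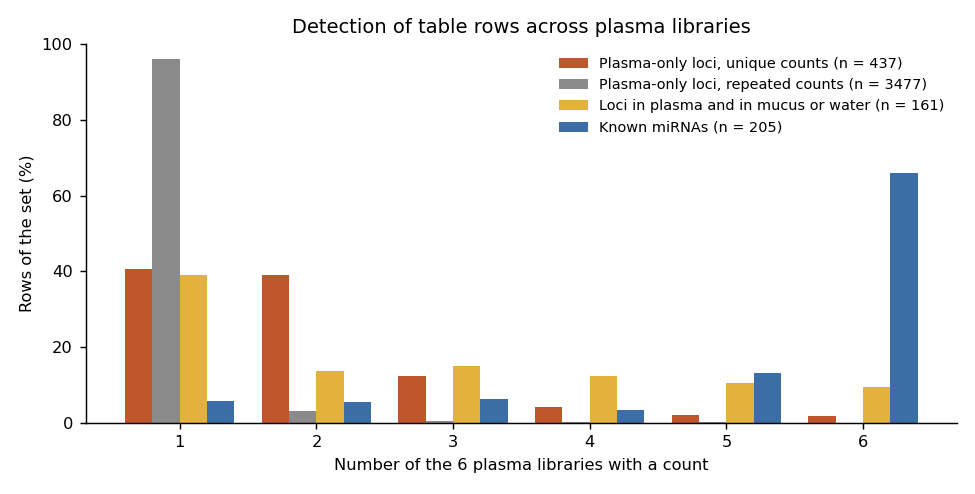
Share of rows (percent, y axis) counted in 1 to 6 plasma libraries (x axis) for plasma-only loci with unique counts, plasma-only loci with repeated counts, loci counted in plasma and in mucus or water, and known miRNAs. Loci with unique counts fell mostly in 1 library (40.5%) or 2 libraries (39.1%), loci with repeated counts in 1 library (95.9%), and known miRNAs in all 6 (65.9%).

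The demand for unique counts shaped this distribution, so the contrast with the repeated loci, of which 3336 (95.9%) were counted in 1 library, is a description of the rule. Among plasma-only loci counted in 1 library, those with a count of 1 to 24 were unique in 0.270% of cases, those of 25 to 99 in 9.24%, those from 100 to under 1000 in 53.0% and those of 1000 or more in 78.6%. Among plasma-only loci counted in 2 libraries, 61.3% were unique, and all 8 counted in 6 libraries were. Loci with a low count in a single fish were thus mostly set aside by the rule. The loci just inside it were NC_035080.1:53878026..53878105:-, with 2 counts in stressed replicate 2, and NC_035086.1:59035370..59035454:+, with 2 counts in control replicate 1. Just outside were NC_035078.1:54255159..54255217:- and NW_018620668.1:154..207:+, each with a sum of 4 over mucus and water.

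The number of these loci per fish did not separate the treatments. Stressed fish had 128, 167 and 136 of them with a count of at least 1, against 117, 179 and 119 in control fish. The groups overlapped, and the mean was 144 ± 20.6 in stressed fish and 138 ± 35.2 in control fish (SD, n = 3 each). The difference of 5.33 loci had p = 0.8 in a 2-sided exact permutation test, in which 3 against 3 libraries cannot give a p below 0.1. The second stressed and the second control library, which held the most loci, also held the most counts (13222298 and 11439510). The part of depth in these numbers was not tested.

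Which fish shared a locus did not follow the treatment closely either. The loci counted in stressed fish alone numbered 134, those in control fish alone 117, and 186 were counted in both. Of the 134 and the 117, 92 and 85 were counted in 1 fish. A locus of 1 fish falls in 1 treatment whatever its cause, so these show nothing about sharing. Among the 171 loci counted in exactly 2 fish, 70 were in 2 fish of the same treatment, for which there are 6 pairs of libraries, and 101 in 1 fish of each treatment, for which there are 9 pairs. The pair sharing the most such loci was stressed replicate 2 with control replicate 2, with 21. The pairs sharing the fewest were stressed replicate 2 with control replicate 1 and stressed replicate 3 with control replicate 3, each with 5.

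Few loci dominated the counts. The loci summed to 1906751 counts over the 6 libraries, and the 3 largest, each counted in 1 fish only, made up 86.0% of this sum. NC_035102.1:15513969..15514040:+ had 1046237 counts in control replicate 1, which was 15.1% of all counts of that library, and was listed at 0 in the other 5. NC_035078.1:67782545..67782615:- had 521302 counts in control replicate 3 alone, 6.56% of that library. NW_018545327.1:967..1027:+ had 71685 counts in stressed replicate 3 alone, 1.25% of that library. The fourth highest by mean CPM, though not by summed counts, was NC_035080.1:71878031..71878091:+, also counted only in stressed replicate 3, with 21161 counts. None of these locations overlapped another row of the table, and none shared its count with another row of its library.

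These single locations decided the summed level. Together the loci took 0.681%, 0.518% and 2.11% of all counts in stressed fish, against 15.4%, 0.592% and 6.92% in control fish. The mean share was 1.10 ± 0.876% in stressed fish and 7.64 ± 7.44% in control fish (SD, n = 3 each), with overlapping groups and p = 0.3 in the 2-sided exact permutation test. Without the 3 largest loci, a choice made after their values were seen, the shares were 0.681%, 0.518% and 0.863% in stressed fish, against 0.337%, 0.592% and 0.362% in control fish. The difference then ran the other way, by 0.257 percentage points with p = 0.2 in the same exact permutation test, and the groups still overlapped. In such bulk plasma RNA, release from more cells and more release per cell cannot be told apart.

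**Figure D2:**
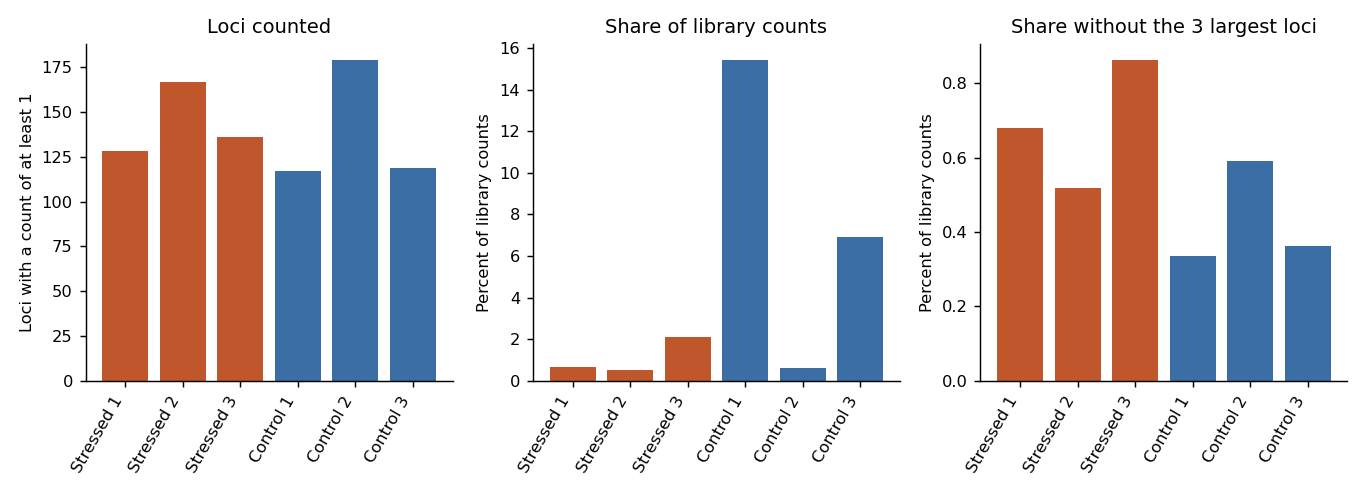
Number of loci with a count of at least 1 (left), the loci's percent of all library counts (middle) and the same percent without the 3 largest loci (right), 1 bar per plasma library, with the 3 stressed fish left of the 3 control fish. Control 1 at 15.4% and Control 3 at 6.92% stand out in the middle panel, and on the right every library lies between 0.337% and 0.863%.

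Loci counted in a single fish carried most of the counts in 5 of the 6 libraries. Such loci numbered 27, 37 and 28 in the stressed fish and 28, 40 and 17 in the control fish. They made up 65.6%, 22.6% and 88.1% of the counts of all these loci in the stressed fish, and 98.9%, 66.9% and 95.1% in the control fish. Their median count per library was from 59 in control replicate 3 to 143 in stressed replicate 2. In every library this was above the median of all the loci counted there, which was from 31 to 52. The rule favours this, since it set aside most loci with a low count in a single fish.

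Some loci counted in different fish overlapped under different names. Whether the naming of locations accounts for the spread over fish was not tested. Since the same location can be listed with other ends in another library, loci that overlapped by at least 1 base on the same strand were compared. Of the 437 loci, 66 (15.1%) overlapped another of them, and these formed 29 groups: 23 of 2 loci, 4 of 3 and 2 of 4. In 21 of the 29 groups both ends lay within 5 bases of each other. Joining raised the number of fish in which the location was counted in 27 of the 29 groups, and in only 11 of the 113 combinations of a group and a library with a count was more than 1 of its loci counted.

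The clearest case was a location on the minus strand of NC_035104.1 from base 6458001. The locus that ends at 6458049 had 12208 counts in stressed replicate 1, the one ending at 6458048 had 6941 in stressed replicate 2, and the one ending at 6458050 had 27382 in control replicate 2. Each was listed at 0 in the other 5 libraries. Read row by row, these are 3 loci of 1 fish each, and joined they are 1 location counted in 3 fish of both treatments, which the other 3 libraries did not list.

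Other joined locations gave levels in nearly every fish. The 3 loci on the plus strand of NC_035090.1 that end at 64149267 had together 1295, 290 and 4599 counts in stressed fish, against 0, 1558 and 5588 in control fish. Of these, NC_035090.1:64149205..64149267:+ alone had 1295 and 290 in stressed replicates 1 and 2 and 5588 in control replicate 3. The locus NC_035097.1:22327220..22327284:+ was listed at 0 in stressed replicate 3, where the locus ending 1 base earlier had 3407 counts. The 4 loci between NC_035101.1:8003855 and 8003916 on the plus strand summed to 169, 197 and 249 counts in stressed fish and 124, 942 and 304 in control fish, so that all 6 fish were covered by rows each of which was counted in 1 or 2.

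**Figure D3:**
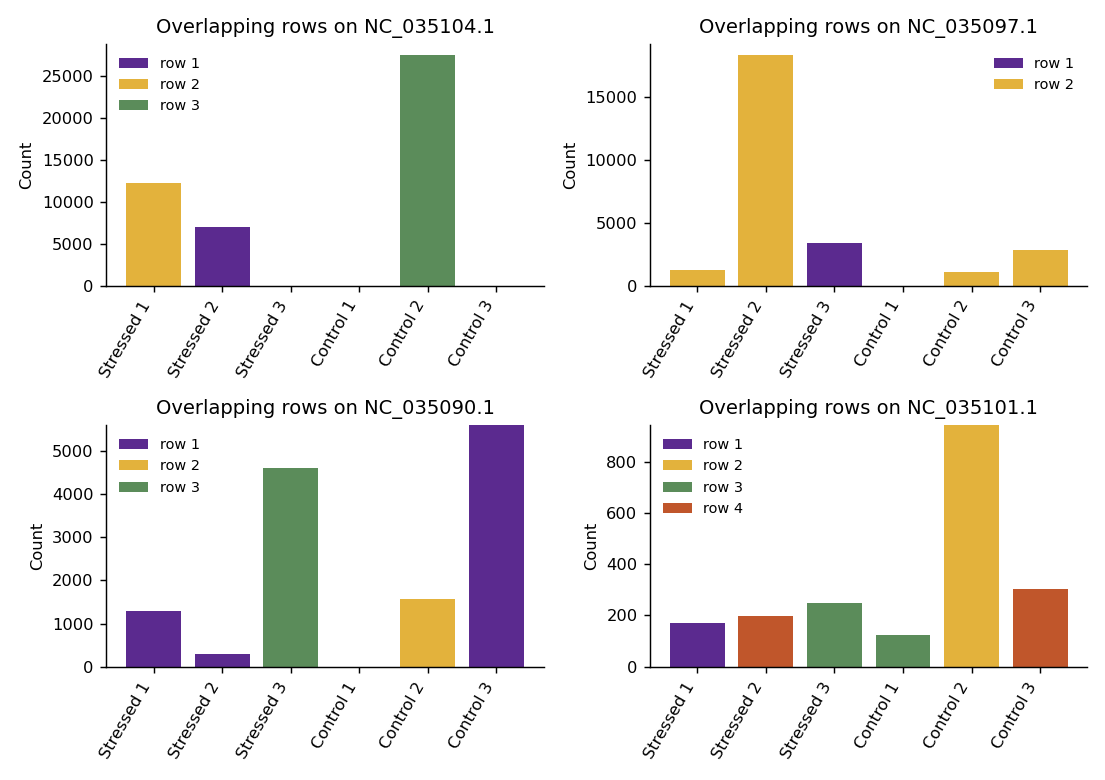
Counts (y axis) in the 3 stressed and 3 control plasma libraries (x axis) at 4 locations that the table lists with more than 1 pair of ends, with 1 colour per row. In each library the bar has 1 colour, as at NC_035104.1, where 3 rows had 12208, 6941 and 27382 counts in 1 fish each.

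The remaining groups of 3 or 4 loci were less regular. On the minus strand of NC_035094.1, NC_035094.1:15990336..15990430:- had 588 counts in stressed replicate 3, NC_035094.1:15990337..15990429:- had 1276 in control replicate 2, and NC_035094.1:15990359..15990403:-, a shorter stretch inside them, had 1110 in control replicate 1. On scaffold NW_018608083.1, the 4 loci between bases 8721 and 8827 had 58, 0 and 68 counts in stressed fish and 56, 96 and 87 in control fish. There the locus of control replicate 1, NW_018608083.1:8770..8827:-, lay across the end of the other 3. On scaffold NW_018550528.1, added after its values were seen, 2 overlapping loci, NW_018550528.1:1297..1362:+ and NW_018550528.1:1339..1392:+, had the same 20 counts in stressed replicate 1 and the same 79 in control replicate 3, and were listed at 0 in the other 2 control fish. The locus NW_018550528.1:1339..1391:+ had 9 counts in stressed replicate 2, and in stressed replicate 3 it and NW_018550528.1:1297..1362:+ both had 30. Summing such rows can count the same reads more than once.

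Joining the 66 overlapping loci turned the 437 into 400 locations, of which 147 (36.8%) were counted in 1 fish and 11 in all 6. Stressed fish then had 126, 166 and 133 locations with a count, against 115, 178 and 117 in control fish. The difference of 5 locations had p = 0.8 in the 2-sided exact permutation test.

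Overlap with rows that the rule had left out was at least as frequent. Of the 437 loci, 75 (17.2%) overlapped a plasma-only row with repeated counts, 33 (7.55%) overlapped a row counted in mucus or water, and 99 (22.7%) overlapped either. The 292 loci with no overlap of any kind remained as listed. When every overlapping row was added, 121 of the 400 locations (30.2%) were counted in 1 fish and 17 in all 6. Of these 17, 7 also had counts in mucus or water.

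**Figure D4:**
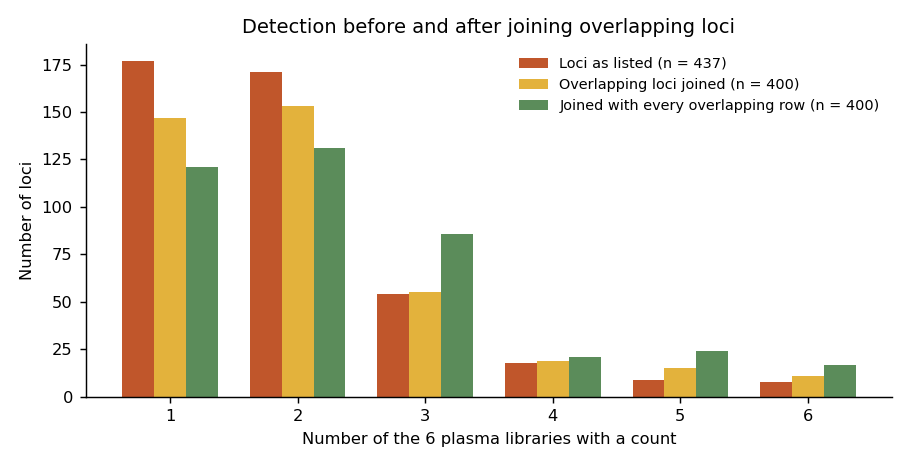
Number of loci (y axis) counted in 1 to 6 plasma libraries (x axis) as listed, after joining overlapping loci, and after adding every overlapping row. The number in 1 library went down over these steps (177 of 437, 147 of 400, 121 of 400), and the number in all 6 went up (8, 11, 17).

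At the level of the location, plasma alone therefore did not hold for 26 of the 400 (6.5%), since 22 had overlapping rows counted in water, 12 in mucus and 8 in both. Of the 22, 5 (22.7%) were counted in all 3 stressed and no control water libraries, beside 25 (8.04%) of all 311 joined locations with a count in water, and that difference was not tested. The counts below are raw, and library totals differed between the sample types, so they do not compare levels with those in plasma. For the same reason they do not compare levels of stressed with control water or mucus. Stressed water libraries held 5090770, 3451473 and 5414071 counts in all rows, against 695998, 647526 and 445067 in control water. Stressed mucus libraries held 23634159, 3395934 and 1751108, against 1962483, 2146511 and 2638571 in control mucus. At NC_035099.1:1191602..1191655:+ the locus itself had 947 counts in stressed replicate 1 alone. With overlapping rows added, the location had 947, 0 and 1038 counts in stressed plasma and 832, 0 and 0 in control plasma. The overlapping rows had 150024, 100526 and 50431 counts in stressed water and 0, 121161 and 48573 in control water. At NC_035085.1:53036782..53036845:+, with 276 plasma counts in control replicate 1, a row with ends 1 base further out had 3573, 648 and 2201 counts in stressed mucus and 2354, 0 and 2629 in control mucus. The 86 bases before that row separate it from NC_035085.1:53036651..53036695:+, which was counted in 5 plasma libraries (0, 1379 and 2564 in stressed fish, against 4132, 3122 and 2895 in control fish) and in no mucus or water library. The locations with large mucus or water counts were picked here after their values were seen.

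Although each row was unique over all 18 libraries, some joined locations had counts equal to those of another location. Among the 400 joined locations, 279 were counted in 2 or more fish. Over all 18 libraries, mucus and water included, 27 of the 400 had the same count as another location in 2 or more libraries. For 12 of the 27 this held in 3 or more of the 18 libraries, and each of these 12 had such a partner on another sequence. These numbers include equal counts in mucus or water, and the numbers for plasma alone were not computed. How often unrelated locations have equal small counts was not computed either. The locus NC_035103.1:3700929..3701000:+ had 46, 601 and 218 counts in stressed fish and 25, 49 and 58 in control fish. The location NC_035080.1:39508301..39508354:-, picked after its values were seen, had 0, 601 and 218 counts in stressed fish and 25, 49 and 58 in control fish once its 2 overlapping loci were joined. The values were equal in 5 libraries, and whether the same reads were counted at both locations was not tested.

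Some counts were also equal to that of a known miRNA in the same library. Of the 165 loci with a count of 100 or more in a plasma library, 22 (13.3%) had such a count in common with 1 or more of 21 known miRNA rows, in 1 library for each pair of locus and miRNA. Some of the 22 were counted in 1 plasma library only, so the equal count was their only plasma count. NC_035084.1:74754897..74754954:- and ssa-let-7d-3p both had 434 counts in stressed replicate 2 and were both listed at 0 in every other plasma library. The highest equal count was that of NC_035097.1:22327220..22327284:+, whose 18278 counts in stressed replicate 2 were also those of ssa-miR-30d-5p in that library. In stressed replicate 1 the locus had 1224 counts and ssa-miR-30d-5p 8732. The 947 counts of NC_035099.1:1191602..1191655:+ in stressed replicate 1 equalled those of ssa-miR-152-5p, and the 276 counts of NC_035085.1:53036782..53036845:+ in control replicate 1 equalled those of ssa-miR-210-5p. These examples were picked after their values were seen. Whether these counts came from the same reads was not tested, so a locus count is not shown to be separate from that of a known miRNA.

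A second pair of locations was close but not equal. NC_035091.1:46039800..46039864:- had 1168, 17444 and 3155 counts in stressed fish, against 0, 1052 and 2632 in control fish. NC_035097.1:22327220..22327284:+, on another chromosome and of the same length of 64 bases, had 1224, 18278 and 0 counts in stressed fish, against 0, 1074 and 2822 in control fish. Both were highest in stressed replicate 2 and listed at 0 in control replicate 1. In the test described below, neither differed between stressed and control plasma beyond the spread of the libraries. As single rows, the log2 fold changes were 2.32 ± 2.18 and 1.98 ± 2.99 (± SE, unadjusted p of 0.325 and 0.532). For the second, the row ending 1 base earlier had 3407 counts in stressed replicate 3. With overlapping rows summed, the log2 fold changes were 2.43 ± 2.11 and 2.41 ± 2.12 (unadjusted p of 0.289 and 0.293 by the same test).

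The 8 loci counted in every fish are the ones whose levels can be followed without joining. None of them overlapped another row. Of the 8, 2 had a count of 100 or more equal to that of a known miRNA in 1 library. NC_035096.1:33002401..33002485:+ had the 171 counts of ssa-miR-103-5p and ssa-miR-103-3p in stressed replicate 3. NC_035087.1:8783362..8783420:+ had the 104 counts of ssa-miR-499a-5p in control replicate 1. In the order of lowest CPM among the 8, NC_035091.1:23407060..23407119:+ came first, with 511, 1322 and 1147 counts in stressed fish and 545, 762 and 3374 in control fish. In CPM this was 118, 99.98 and 199.6 in stressed fish, against 78.6, 66.6 and 425 in control fish, so that its highest value, in control replicate 3, set the control mean above the stressed mean. Its log2 fold change was -0.74 ± 0.96 (SE), and 0.95 without control replicate 3.

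NC_035103.1:3700929..3701000:+ had the smallest unadjusted p of the 8. Its level was 10.6, 45.5 and 37.9 CPM in stressed fish and 3.6, 4.28 and 7.3 CPM in control fish. Every stressed fish was above every control fish on this scale, whereas after scaling by the trimmed mean of M-values (TMM) the lowest stressed value, 7.38 CPM, fell below the highest control value, 9.07 CPM. Its log2 fold change was 2.60 ± 1.16 (SE) with an unadjusted p of 0.0639 and an adjusted p of 0.833 by the edgeR quasi-likelihood test.

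NC_035092.1:20915480..20915534:- had 124, 1535 and 534 counts in stressed fish and 78, 81 and 356 in control fish, with a log2 fold change of 1.84 ± 1.20. NC_035079.1:75236223..75236285:+ had 66, 688 and 159 counts in stressed fish and 29, 76 and 157 in control fish, with a log2 fold change of 1.59 ± 1.19. Without stressed replicate 2 the log2 fold changes were 1.08 and 0.59, and without control replicate 3 they were 3.40 and 2.84, in the order of the loci above. Stressed replicate 2 held the highest CPM of both and of NC_035103.1:3700929..3701000:+, and the groups of these 2 loci overlapped.

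The remaining 4 had no common pattern. NC_035087.1:8783362..8783420:+ had 128, 121 and 123 counts in stressed fish and 104, 557 and 140 in control fish. NC_035096.1:33002401..33002485:+ had 412, 177 and 171 counts in stressed fish and 56, 474 and 59 in control fish. NC_035101.1:64167145..64167195:+ had 67, 18 and 119 counts in stressed fish and 168, 224 and 54 in control fish. The groups overlapped in each. NC_035091.1:13901463..13901523:+, the lowest of the 8 by summed counts, had 30, 48 and 12 counts in stressed fish and 61, 45 and 73 in control fish. Over the 8 loci, the highest CPM of a locus was between 4.4 and 17.8 times its lowest, and the adjusted p of the 7 other than NC_035103.1:3700929..3701000:+ was 0.993.

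**Figure D5:**
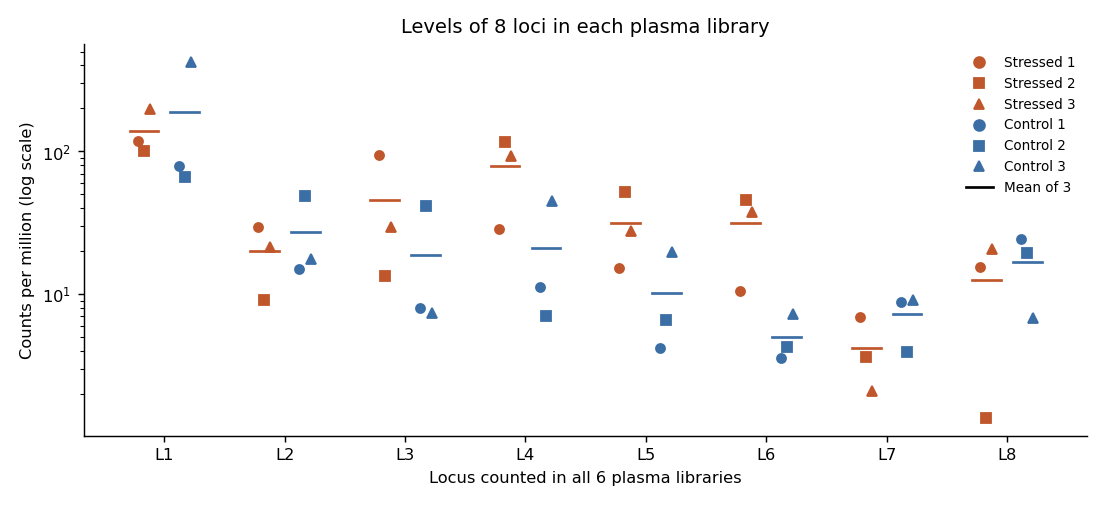
CPM on a log scale (y axis) of the 8 loci counted in all 6 plasma libraries (x axis), with stressed fish left of control fish at each locus, 1 symbol per fish and a line at the mean of 3. L1 to L8 are NC_035091.1:23407060..23407119:+, NC_035087.1:8783362..8783420:+, NC_035096.1:33002401..33002485:+, NC_035092.1:20915480..20915534:-, NC_035079.1:75236223..75236285:+, NC_035103.1:3700929..3701000:+, NC_035091.1:13901463..13901523:+ and NC_035101.1:64167145..64167195:+. The fish of both groups overlap at every locus but L6.

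The comparison of stressed with control plasma asks which small RNAs change in blood within 1 h of air exposure. The edgeR quasi-likelihood test was fitted on all rows of the 6 plasma libraries, with the thresholds of the study (p of 0.05 or less, adjusted p under 0.1 and absolute log2 fold change over 2). Of 365 rows that passed the filter on low counts, 0 were called (0%), and 18 (4.93%) reached an unadjusted p of at most 0.05. Of the 437 loci, 84 passed the filter, which mostly keeps rows counted in 3 or more fish. None of the 84 was called, and 4 (4.76%) reached an unadjusted p of at most 0.05, a share close to that of all rows. Their median log2 fold change was -0.25, beside -0.08 over all rows, with 36 above and 48 below 0.

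The same 4 loci were counted in all 3 fish of one treatment and in none of the other. NC_035081.1:80749515..80749576:- had 56, 33 and 13 counts in stressed fish and was listed at 0 in control fish. NC_035086.1:21902309..21902368:+ had 14, 32 and 59 counts in stressed fish and was listed at 0 in control fish. In the other direction, NC_035096.1:10068641..10068685:- was listed at 0 in stressed fish and had 99, 104 and 18 counts in control fish. NC_035094.1:40677194..40677234:+ was listed at 0 in stressed fish and had 27, 31 and 18 counts in control fish. The unadjusted p of these 4 was between 0.00932 and 0.0118 and the adjusted p was 0.316 for each by the edgeR quasi-likelihood test, and no fold change is given against a group listed at 0.

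Counts that did not overlap between the treatments were about as frequent among these loci as among all rows. Stressed fish were all above control fish, in TMM-scaled CPM, for 3 of the 84 loci (3.57%), beside 5.21% of the 365 rows, and control fish were all above stressed fish for 3 loci (3.57%), beside 4.93%. Besides the 4 loci above, these were NC_035082.1:46392980..46393039:+, named here after its values were seen, with 15, 43 and 32 counts in stressed fish and 0, 16 and 0 in control fish, and NC_035087.1:37291180..37291234:+, with 0, 23 and 0 counts in stressed fish and 26, 61 and 84 in control fish. Their adjusted p was 0.993.

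For 1 of the 4 loci, the pattern was lost once overlapping rows were added. Rows that overlap NC_035086.1:21902309..21902368:+ with ends up to 3 bases away had 23 counts in control replicate 2 and 29 in control replicate 3. The joined location therefore had 14, 32 and 59 counts in stressed fish and 0, 23 and 29 in control fish.

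Joining also brought out locations that no single row showed. Among the 400 joined locations, 6 were counted in all 3 stressed fish and no control fish, and 3 in all 3 control fish and no stressed fish. The highest, NC_035080.1:5700480..5700554:-, had 235, 277 and 196 counts in stressed fish and was listed at 0 in control fish, with the count of stressed replicate 1 from a row that begins 2 bases before that of the other fish. NC_035088.1:56737054..56737100:+ had 214, 24 and 42 counts in stressed fish, and NC_035103.1:12048200..12048332:- had 35, 32 and 28, both listed at 0 in control fish. NC_035082.1:9974744..9974807:+ had 12, 40 and 39 counts and NC_035094.1:33333185..33333233:- had 72, 16 and 14 in stressed fish, again with 0 in control fish. NC_035087.1:63712673..63712735:- was listed at 0 in stressed fish and had 41, 37 and 13 counts in control fish. These 6 were picked after their values were seen. The other 3 were NC_035081.1:80749515..80749576:-, NC_035096.1:10068641..10068685:- and NC_035094.1:40677194..40677234:+, named above as single rows. The share of all joined locations with this pattern was not computed, so the counts of 6 and 3 have no background beside them.

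None of them passed the threshold. In the fit with overlapping rows summed, 463 rows were tested and 0 were called (0%), and of the 140 tested locations that hold one of the loci, 0 were called. An unadjusted p of at most 0.05 was reached by 10 of these 140 (7.14%), beside 31 of all 463 (6.70%). The smallest adjusted p, 0.166, was that of NC_035080.1:5700480..5700554:-. Stressed fish were all above control fish in 10 of the 140 (7.14%), beside 6.91% of all 463, and control fish were all above stressed fish in 6 (4.29%), beside 3.89%. These shares were near those of all rows tested.

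The tests that the study used gave few calls. Its exact test of edgeR with a common dispersion called 1 of 365 rows (0.274%) and none of the 84 loci, whose smallest adjusted p was 0.364. The Wald test of DESeq2 called 10 of the 853 rows to which it gave an adjusted p (1.17%) and 3 of 210 loci (1.43%). Each of these 3 was counted in 1 fish only. NC_035088.1:67280345..67280412:- had 72 counts and NC_035085.1:26541150..26541213:+ had 69 counts in stressed replicate 1, and NC_035096.1:21083292..21083351:+ had 71 counts in control replicate 1. Their adjusted p was 1.18e-05 by DESeq2, with 0 in all 5 other libraries, so each call rests on 1 fish.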

How the data were processed

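Small RNA of plasma, mucus and water was sequenced in 18 libraries. Per the submitters' processing notes and the study's methods, the authors trimmed reads with cutadapt 2.10 and aligned them with Bowtie 1.1.1 to Omyk_1.0 within miARma-Seq. Known miRNAs and predicted precursors were counted with miRDeep2, library by library. Per the study, miRDeep2 counts reads of different precursors more than once, and miARma-Seq corrects for this by averaging mature miRNA counts over precursors. The deposited table holds estimated counts, all whole numbers and not normalized. The authors' own result tables hold fold changes and p-values and were not used. Levels are counts or CPM of all counts of a library. Replicates are single fish, grouped by the labels.

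Rows with a plasma count were scaled by TMM, filtered with filterByExpr by treatment, scaled again and tested with glmQLFit and glmQLFTest of edgeR 4.0.16 in R 4.3.3, with Benjamini-Hochberg adjustment over all rows tested. The exact test of edgeR and the Wald test of DESeq2 1.42.0 were alternatives, as were other scalings, no filter, identical rows kept once, overlapping rows summed, a replicate block and each library left out. Values per library were compared by 2-sided exact permutation tests with scipy 1.17.1 in Python 3.11.15. Tables were read with pandas 2.3.3 and numpy 2.4.6 and plotted with matplotlib 3.10.9. The scripts were tested on simulated data.

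The members and lists were chosen with earlier results of these data known. Loci named are those called by any of the 3 tests, the 10 of highest mean CPM, those counted in all 6 plasma libraries, the members of the 5 joined locations that hold the most loci, those counted in all 3 fish of one treatment and none of the other, the 3 tested loci of smallest unadjusted p in each direction, and the 2 loci on each side of the rule's edge; others are said to be picked after their values were seen. Whether coordinates count from 0 or 1 is not given in the sources used here, and no 2 rows touch only at their ends. No genome of this build was at hand, so sequences and nearby genes were not analysed here.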

Additional observations from a re-analysis of the deposited data

Results flagged for a closer look

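At 5 joined locations that hold one of the loci, an overlapping row was counted in all 3 stressed water libraries and in no control water library. The share over all joined locations with a count in water was 8.04%. NC_035086.1:39319782..39319843:- had 73, 45 and 55 counts in stressed water (mean 12.5 CPM), and NC_035101.1:8003855..8003918:+ had 45, 27 and 19 (mean 6.72 CPM). NC_035097.1:27121475..27121535:+ had 44, 13 and 18 counts (mean 5.24 CPM), NC_035092.1:12389919..12389977:+ had 20, 19 and 30 (mean 4.99 CPM), and NC_035097.1:30456388..30456453:- had 24, 16 and 7 (mean 3.55 CPM). All 5 were listed at 0 in control water. The stressed water libraries held 5090770, 3451473 and 5414071 counts in all, against 695998, 647526 and 445067 in control water, so depth differed with the treatment, and its part in these values was not tested.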

How the results depend on the processing

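The count of rows called in plasma, 0 by the edgeR quasi-likelihood test, was 21 with no filter, 10 by DESeq2, 1 by the exact test and between 0 and 1 with each library left out (1 without control replicate 2). With no filter, 11 of the 437 loci were called, beside 21 of all 4280 rows. That setting also tests loci counted in 1 fish, and how many of the 11 were such loci was not computed. DESeq2 called 3 of 210 loci (1.43%), beside 10 of 853 rows (1.17%). With each library left out, 0 loci were called. Likewise, 0 were called with DESeq2 size factors, with scaling by known miRNAs, with identical rows kept once and with a replicate block. The replicate block left 8 rows and 0 loci with an unadjusted p of 0.05 or less by the edgeR quasi-likelihood test. Same-numbered stressed and control libraries did not deviate together (r over tested rows of -0.10, -0.02 and -0.17). The numbers do not pair samples of the same fish, and the labels do not say whether a number is the experimental replicate. With the pairing by number, the difference was 5.33 loci, 5 joined locations and -6.54 percentage points of library counts, with exact p of 0.75, 0.75 and 0.25. The last is the smallest p that 3 pairs allow, and the share was lower in the stressed library of all 3 numbers. With each library left out, the difference between stressed and control fish was between -6.33 and 25.7 loci, between -7.17 and 25.7 joined locations, and between -10.1 and -2.65 percentage points. The first 2 turned negative without stressed replicate 2 (-6.33 and -7.17), without control replicate 1 (-5.33 and -5.83) and without control replicate 3 (-4.33 and -4.83). Without the 3 largest loci, added after seeing the data, the share was 0.257 points higher in stressed fish. For NC_035091.1:23407060..23407119:+, leaving out 1 library gave a log2 fold change between -1.20 and 0.95. Stricter overlap, either strand, a count of at least 10 and a mucus and water sum of up to 10 changed no count of loci by over 1.5 times and turned no difference. Thinning to the lowest plasma total keeps nearly all listed loci by construction and shows nothing about depth. Depth, the library-wise listing of locations and 3 fish per treatment limit what could be shown.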
